A study of Mus musculus with 15 samples.

Results

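The livers of 2 groups of lean mice, which reached a lower body weight by different routes, were compared with the livers of heavier, freely fed mice. All 15 mice were males of the apoE3L.CETP genotype (ApoE*3-Leiden.CETP), which carry human lipoprotein genes, and were 9 to 12 weeks old when obtained. For 6 weeks before surgery all ate a diet rich in fat (60%) with 0.25% cholesterol, and they were killed 20 days after the operation. The RYGB group (n = 6) had Roux-en-Y gastric bypass, an operation that leads food from a small stomach pouch straight into the jejunum. The Sham AL group (n = 5) had a sham operation and ate ad libitum. The BWm group (n = 4) had a sham operation and was kept at the body weight of the RYGB mice. The mice were housed singly after surgery, and when they last ate before the livers were taken is not given in the sources used here. Liver RNA was hybridised to Mouse Gene 2.0 ST GeneChips with 1 chip for each mouse, and all 15 arrays of the series were used. Values are log2 signals, so a difference of 1 is a doubling.

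The question was which liver genes lie on the same side of Sham AL in both lean groups. The contrast was the equally weighted average of the RYGB and BWm means minus the Sham AL mean, called the lean difference here. A gene was called when limma's adjusted p (Benjamini-Hochberg over 22180 genes) was under 0.05. It counted as shared when RYGB and BWm also each lay on that side of Sham AL with an unadjusted p under 0.05. The same Sham AL arrays stand in both of these comparisons, so sharing is a description and has no test of its own.

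Several systems of the liver respond to food supply and fat stores. A fatty liver makes lipid droplet proteins that are otherwise typical of fat cells, such as Cidec and Cidea, under the nuclear receptor Pparg. Insulin drives fatty acid synthesis through the factor Srebf1, and it holds down genes such as Igfbp1 and Irs2, which the FoxO factors switch on when insulin is low. Metallothioneins bind zinc and copper, and their genes respond to metals, glucocorticoids and fasting.

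The results turn on a few genes of these systems, and 3 of their promoters are shown to give that context. The sequences are the 250 bases before the RefSeq gene start in GRCm38.p6, plus strand. They are chr11:7197537-7197786 for Igfbp1, chr8:94178839-94179088 for Mt1 and chr8:94172368-94172617 for Mt2. Capitals mark matches to the core letters of the FoxO site (GTAAACA or CAAAACA) in Igfbp1, and of the metal response element (TGCACNC or TGCGCNC) in Mt1 and Mt2, searched on both strands.
Igfbp1: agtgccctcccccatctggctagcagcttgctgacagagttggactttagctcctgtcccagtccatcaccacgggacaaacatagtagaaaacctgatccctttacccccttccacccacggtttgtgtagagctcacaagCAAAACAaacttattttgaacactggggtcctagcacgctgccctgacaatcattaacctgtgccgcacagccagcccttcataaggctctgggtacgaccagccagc
Mt1: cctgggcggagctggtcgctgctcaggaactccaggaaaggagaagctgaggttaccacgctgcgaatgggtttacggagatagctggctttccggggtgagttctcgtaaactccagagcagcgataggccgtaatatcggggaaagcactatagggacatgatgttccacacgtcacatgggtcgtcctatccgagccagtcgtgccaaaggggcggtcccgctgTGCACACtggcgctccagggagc
Mt2: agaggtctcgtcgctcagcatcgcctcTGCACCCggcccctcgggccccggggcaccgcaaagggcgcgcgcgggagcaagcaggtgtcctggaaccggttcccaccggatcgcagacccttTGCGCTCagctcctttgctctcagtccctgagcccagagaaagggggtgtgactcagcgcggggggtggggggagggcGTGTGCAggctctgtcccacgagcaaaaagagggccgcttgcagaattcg
The metal response core was found in 21.3% of 27025 such windows, in 18 of 53 windows of shared higher genes (34%) and in 11 of 36 of shared lower genes (30.6%). The FoxO core was found in 8.42% of all windows, in 5 of 53 (9.43%) and in 4 of 36 (11.1%). A match describes these letters only and does not show that a factor binds there.

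The arrays were alike in scale, with medians between 3.89 and 4.02 and Pearson's r between any pair of arrays, across genes, of 0.957 to 0.986. The array of Sham AL replicate 4 stood apart, with 662 genes over 1 log2 unit from the rest of its group, against 53 to 128 on the other arrays. It carried adrenal and fat transcripts. Cyp11b1, an adrenal steroid enzyme, was at 10.37 there and at 2.39 to 3.1 on the other Sham AL arrays, and Ucp1 of brown fat at 11.89 against 3.51 to 4.54. Values without this array are therefore given beside the results. Of 14 hepatocyte markers measured, 0 were called by limma and 4 had an unadjusted p under 0.05, against 12.4% of all genes tested. Their median lean difference was 0.05. The log2 of their summed signal was 15.62 to 15.7 in Sham AL, 15.64 to 15.75 in RYGB and 15.75 to 15.79 in BWm. Fewer cells of a type and less RNA per cell cannot be told apart in pieces of whole liver.

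In the lean contrast 138 genes were called (0.622% of the genes tested), and 2751 (12.4%) had an unadjusted p under 0.05. Of these, 86 were higher (0.388%) and 52 lower (0.234%) in the lean groups. Shared were 115 genes, 70 of them higher (0.316%) and 45 lower (0.203%). Without Sham AL replicate 4, 117 genes were called, 61 higher and 56 lower, and 95 of them were also called with it. The count rested on single control arrays: it was 37 without Sham AL replicate 2, 71 without replicate 3 and 83 without replicate 5, and it was 204 without BWm replicate 4. Subtracting the array medians gave 138 higher and 51 lower. Called in every fit that left out 1 array were 33 genes, 32 of them shared. Called in those fits and under every other limma alternative except the level filter were 22, among them Cyp39a1, Lepr, Igfbp1, Igfbp2, Nipal1, Mt1, Mt2, Rdh16f2, Apom, Osgin1, Snhg6 and Avpr1a (higher), and Cidec, Mogat1, Themis and Tpm2 (lower).

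Each single comparison gave its own count, again over the same Sham AL arrays. BWm against Sham AL had 629 called genes (2.84%), RYGB against Sham AL 306 (1.38%), and RYGB against BWm 1411 (6.36%). Both comparisons with Sham AL called 34 genes in 1 direction, 22 of them higher, and 8 in opposite directions. For 55 of the shared genes all 10 lean arrays lay beyond all 5 Sham AL arrays, 35 above and 20 below. Over all genes tested, 57 (0.257%) lay wholly above and 32 (0.144%) wholly below.

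**Figure D1:**
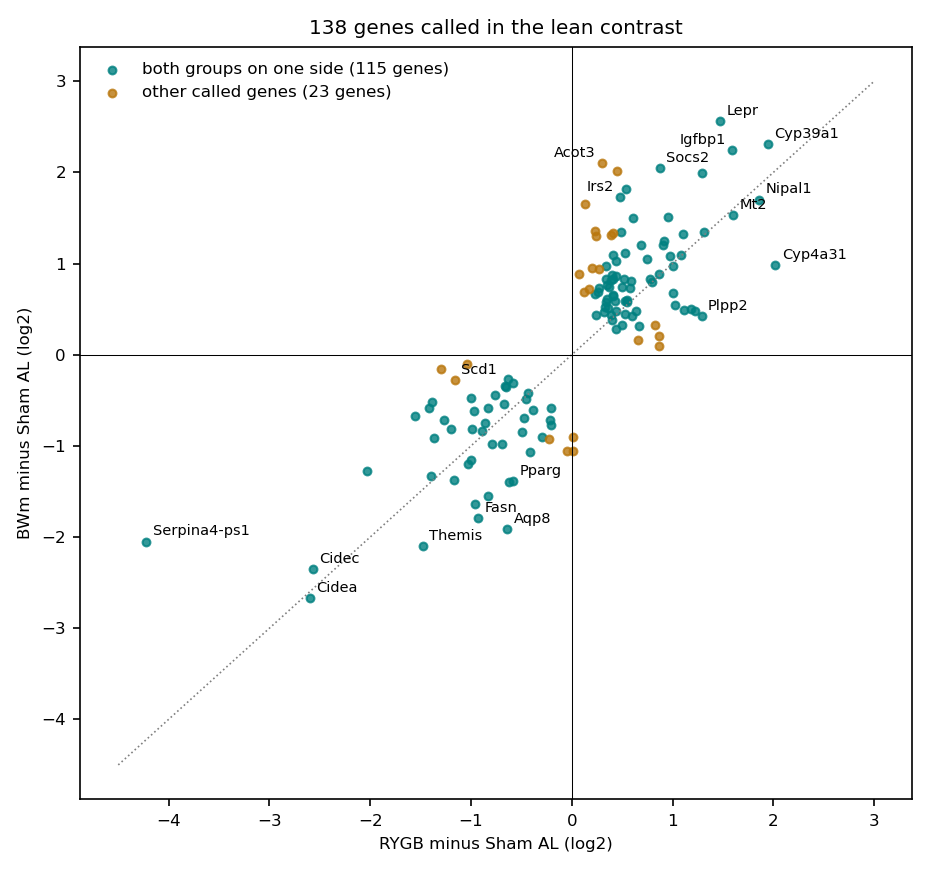
BWm minus Sham AL (vertical axis, log2) against RYGB minus Sham AL (horizontal axis, log2) for the 138 called genes, each point being 1 gene and shared genes drawn in colour. Of these, 115 are shared, 70 in the upper right and 45 in the lower left; both axes use the same 5 Sham AL arrays, so the points' agreement in sign is not evidence by itself.

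A few genes of the lipid droplet fell in both lean groups. Of 23 droplet and steatosis markers measured, 4 fell (Cidea, Cidec, Mogat1 and Pparg) and 0 rose, all 4 being shared. The median lean difference of the list was -0.23 (-0.07 without Sham AL replicate 4), beside -0.01 over all genes. Of the 23, 11 had an unadjusted p under 0.05, against 12.4% of all genes tested, and 8 had a lean difference above 0.

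Cidec (Fsp27) enlarges lipid droplets by letting small ones pass their fat to large ones. In the order of the replicates it measured 6.63, 8.39, 8.29, 9.24 and 7.22 in Sham AL and 5.08, 6.41, 5.85 and 5.1 in BWm. In RYGB it ranged from 4.72 to 6.16 with a median of 5.36. Every lean array lay below every Sham AL array. The lean average differed from Sham AL by -2.46 ± 0.35 (SE), 5.5-fold lower, with limma's adjusted p = 0.0023. RYGB (-2.57) and BWm (-2.35) differed by -0.23, with a 95% interval from -1.09 to 0.64.

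Cidea is a relative of Cidec that is typical of brown fat and appears in fatty liver. It measured 4.59, 7.1, 5.97, 9.61 and 5.77 in Sham AL, 3.74, 3.76, 4.26 and 3.99 in BWm, and 3.75 to 4.36 in RYGB with a median of 3.95. All lean values lay below all Sham AL values and close to the array medians, so the size of the fall depends on how signals near the bottom of the range behave. The array that carried fat transcripts gave the highest value. This gave a lean difference of -2.63 ± 0.51 (limma, adjusted p = 0.021), and -1.88 without Sham AL replicate 4 (adjusted p = 0.0033). Without Sham AL replicate 2 it was not called (limma, adjusted p = 0.084).

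Mogat1 joins a fatty acid to monoacylglycerol on the way to triglyceride. Its values were 4.15, 4.35, 3.98, 4.4 and 4.59 in Sham AL, 3.65, 3.38, 3.5 and 3.36 in BWm and 2.95 to 3.62 in RYGB (median 3.31). No lean array overlapped Sham AL, although all of these levels are near the array medians. The lean difference was -0.90 ± 0.11 (limma, adjusted p = 0.00078).

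Pparg, the nuclear receptor that drives fat storage, fell in both lean groups but to a different extent. It measured 6.96, 7.82, 7.14, 7.67 and 7.24 in Sham AL, 6.01, 5.61, 5.77 and 6.51 in BWm, and 6.54 to 7.03 in RYGB with a median of 6.79. BWm lay wholly below Sham AL, while the highest RYGB value passed the lowest Sham AL value. The lean average differed from Sham AL by -0.99 ± 0.15 (limma, adjusted p = 0.005). It was -0.58 for RYGB and -1.39 for BWm, and the groups differed by 0.81 (limma, adjusted p = 0.0093).

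Other droplet proteins did not pass the test. The coat protein Plin4 had a lean difference of -1.13 (limma, adjusted p = 0.068), with -1.84 in RYGB and -0.42 in BWm. Plin2, the main droplet coat protein of hepatocytes, was at -0.11, the triglyceride enzyme Dgat2 at 0.03 and the lipase Pnpla2 at 0.09.

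Markers of fat cells moved with these genes, and by less without Sham AL replicate 4. Of 11 adipocyte markers, 2 fell, and these were Cidec and Pparg, which are also on the droplet list. With all arrays, 7 of the 11 had an unadjusted p under 0.05, against 12.4% of all genes tested, and 0 had a lean difference above 0. The list's median was -0.83, and -0.23 without Sham AL replicate 4. The log2 of the summed adipocyte signal was 12.7 to 12.82 in the other Sham AL arrays, 13.35 on replicate 4, 11.45 to 12.61 in RYGB and 11.28 to 12.53 in BWm. Car3, which liver also makes, is the brightest marker of this list, at 12.5 in Sham AL. Adipoq, the defining adipocyte hormone, was at 5.58 on replicate 4, and its lean difference without that array was -0.09. Cidec's was -2.14 without it (limma, adjusted p = 0.0037), and Pparg's -0.91 (adjusted p = 0.015). Of 10 brown fat markers, 1 fell (Cidea). Their median was -0.66 with and 0.02 without that array, and the log2 of their summed signal was 10.06 to 10.49 in the other Sham AL arrays, 12.84 on replicate 4, 8.77 to 10.03 in RYGB and 9.9 to 11.86 in BWm. Ucp1 had -1.87 with and -0.27 without it, and was called in neither fit.

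**Figure D2:**
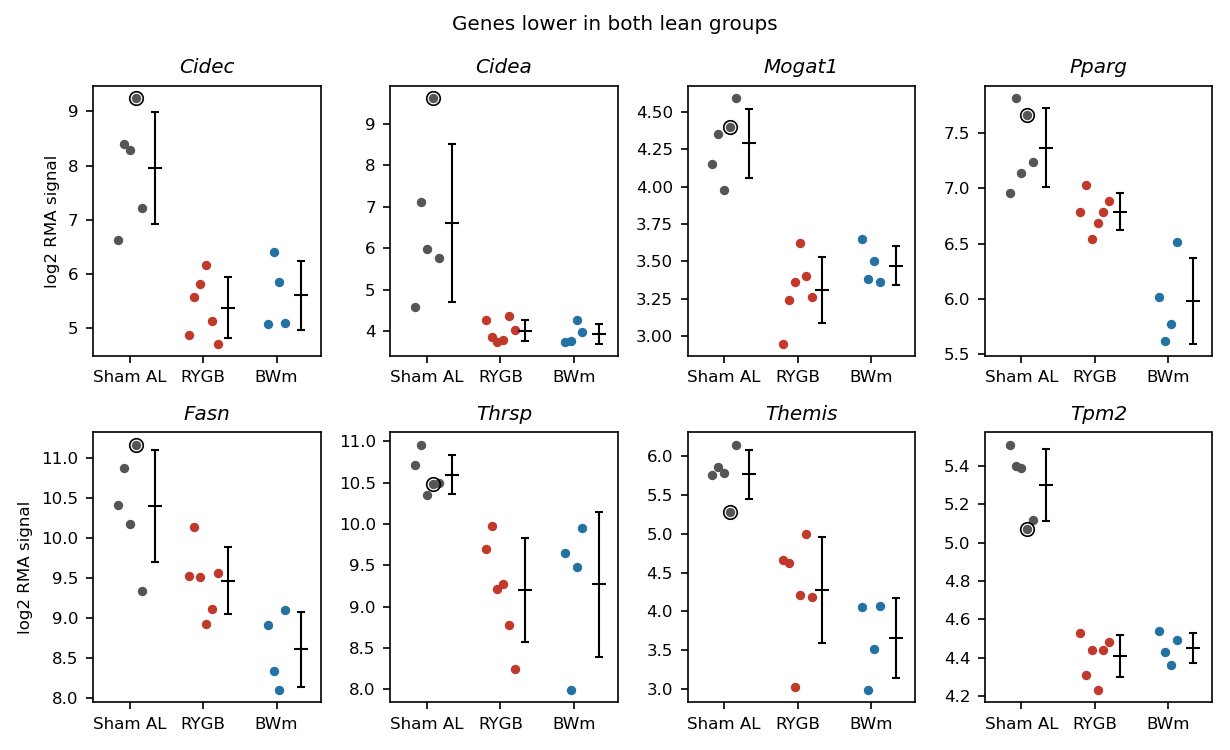
Log2 signal (vertical axis) of 8 genes that fell, by group (horizontal axis: Sham AL, RYGB, BWm), with 1 point per array, the group mean ± SD as bars and an open ring around Sham AL replicate 4. For Cidec, Cidea, Mogat1, Thrsp, Themis and Tpm2 every lean array lies below every Sham AL array, while Pparg and Fasn overlap.

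Some genes of fatty acid synthesis fell as well. Of 24 measured, 4 fell (Thrsp, Fasn, Me1 and Scd1) and 0 rose, and all but Scd1 were shared. The list's median was -0.36 (-0.39 in RYGB and -0.32 in BWm), and -0.30 without Sham AL replicate 4, beside -0.01 over all genes. Of its members, 11 had an unadjusted p under 0.05, against 12.4% of all genes tested, and 6 had a lean difference above 0.

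Fasn, the enzyme that builds palmitate, measured 10.42, 10.88, 10.18, 11.17 and 9.34 in Sham AL, 8.92, 8.34, 8.1 and 9.1 in BWm, and 8.93 to 10.14 in RYGB (median 9.52). All BWm values lay below Sham AL, and RYGB values passed the lowest Sham AL array and no other. This gave a lean difference of -1.36 ± 0.25, 2.57-fold lower (limma, adjusted p = 0.018), and adjusted p was 0.078 without Sham AL replicate 2. Thrsp (Spot14), which supports fatty acid synthesis, measured 10.71, 10.96, 10.35, 10.48 and 10.5 in Sham AL and 9.65, 7.99, 9.48 and 9.95 in BWm. In RYGB it ranged from 8.24 to 9.98 with a median of 9.25, below all Sham AL values. Its lean difference was -1.37 ± 0.28 (limma, adjusted p = 0.032), and its call was lost without any of Sham AL replicates 1, 2, 3 or 5, RYGB replicate 4 or BWm replicate 3 (adjusted p from 0.05 to 0.12).

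Me1, which supplies NADPH for synthesis, had a lean difference of -0.88 ± 0.18 (limma, adjusted p = 0.031). Its Sham AL values were 8.93, 9.51, 8.7, 10.08 and 8.73, its BWm values 8.09, 8.02, 8.53 and 8.2, and its RYGB values 8.21 to 8.64. Every lean array was lower, the RYGB maximum by little, and the highest Sham AL array was replicate 4. Without Sham AL replicate 4 the difference was -0.66 (limma, adjusted p = 0.041), and it was not called without Sham AL replicate 2 or BWm replicate 1 or 2 (adjusted p = 0.12, 0.056 and 0.071). Aacs, which feeds ketone bodies into lipid synthesis, had -1.27 ± 0.23 (limma, adjusted p = 0.017). Its RYGB replicate 2 lay at 7.8, above the lowest Sham AL values, and its call was lost without Sham AL replicate 2 (adjusted p = 0.075).

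Mid1ip1, a partner of Thrsp that activates acetyl-CoA carboxylase, and Hsd17b12, a fatty acid elongation enzyme, were chosen after their values were seen. They had lean differences of -0.67 and -0.50 (limma, adjusted p = 0.022 and 0.03). The other clusters of Mid1ip1 on the array were at 0.07 and -0.11, at levels of 3.94 and 4.65. Scd1, the desaturase, fell through RYGB: its difference was -0.72 in the lean contrast (limma, adjusted p = 0.014), -1.16 in RYGB and -0.28 in BWm. Srebf1, the factor that drives this program, was at -1.14 in RYGB and -1.34 in BWm but varied widely, with a standard deviation of 1.13 in BWm, and was not called (limma, adjusted p = 0.098).

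A set of genes of insulin and growth hormone signalling rose in the lean groups. Of 25 measured, 6 rose (Lepr, Igfbp1, Socs2, Igfbp2, Irs2 and Irs1) and 0 fell, and all 6 were shared and called without Sham AL replicate 4 as well. The list's median was 0.18 (0.03 in RYGB and 0.30 in BWm), and 0.10 without that array. Of its genes, 13 had an unadjusted p under 0.05. Over all genes tested, 12.4% did so, and 0.388% were called as higher.

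Igfbp1, a secreted binding protein of the insulin-like growth factors that insulin holds down, measured 6.67, 7.54, 7.53, 7.75 and 8.47 in Sham AL. It measured 10.02, 10.29, 10.03 and 8.99 in BWm, and 8.55 to 9.53 in RYGB with a median of 9.25. No lean array overlapped Sham AL, though the lowest RYGB array and the highest Sham AL array were close. The lean difference was 1.92 ± 0.24, 3.78-fold higher (limma, adjusted p = 0.00078). The single FoxO core in the Igfbp1 window shown above is a sequence match only.

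Igfbp2, a second binding protein of that family, measured 8.97, 8.46, 8.7, 8.46 and 8.8 in Sham AL, 10.37, 10.03, 9.8 and 9.81 in BWm, and 9.19 to 10.23 in RYGB (median 9.88). Every lean array was higher. The lean average differed from Sham AL by 1.21 ± 0.16 (limma, adjusted p = 0.0014), with 1.10 in RYGB and 1.32 in BWm. These differ by -0.23, with a 95% interval from -0.63 to 0.18.

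Lepr, the receptor of the fat hormone leptin, rose from low levels. It measured 3.75, 4.36, 5.22, 4.23 and 4.68 in Sham AL, 6.67, 7.47, 7.26 and 6.63 in BWm, and 5.36 to 6.66 in RYGB (median 5.72). Every lean array lay above every Sham AL array, and the RYGB mean lay between those of Sham AL and BWm. This gave a lean difference of 2.01 ± 0.25, 4.04-fold (limma, adjusted p = 0.00072), with Sham AL levels close to the array medians, so the fold is uncertain. It was 1.47 in RYGB and 2.56 in BWm, which differed by -1.09 (limma, adjusted p = 0.031).

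Irs2, the docking protein of the insulin receptor that fasting raises, showed a similar order. It measured 6.1, 6.7, 6.6, 7.08 and 6.95 in Sham AL, 8.32, 8.71, 8.59 and 8.03 in BWm, and 6.6 to 7.66 in RYGB (median 7.22). BWm stood wholly above, and RYGB overlapped Sham AL. The lean difference was 1.10 ± 0.18 (limma, adjusted p = 0.0078), with 0.48 in RYGB and 1.73 in BWm. RYGB and BWm differed by -1.25 (limma, adjusted p = 0.0012).

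Socs2, a target and inhibitor of growth hormone signalling, had 4.57, 5.37, 4.15, 5.17 and 5.11 in Sham AL, 6.35, 7.57, 7.17 and 6.61 in BWm, and 5.05 to 6.66 in RYGB (median 5.76). Its lean difference was 1.46 ± 0.27 (limma, adjusted p = 0.016), and adjusted p was 0.054 without Sham AL replicate 3. A second Socs2 cluster, at a mean level of 4.67, gave 0.52. Irs1, the other main docking protein, chosen after its values were seen, rose by less: its lean difference was 0.56 ± 0.11 (limma, adjusted p = 0.02), 0.35 in RYGB and 0.76 in BWm. Igf1, the growth factor that growth hormone induces in liver, was not called, at 0.28 (limma, adjusted p = 0.29). The insulin receptor Insr was at 0.18 and Foxo1 at 0.22, neither of them called.

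**Figure D3:**
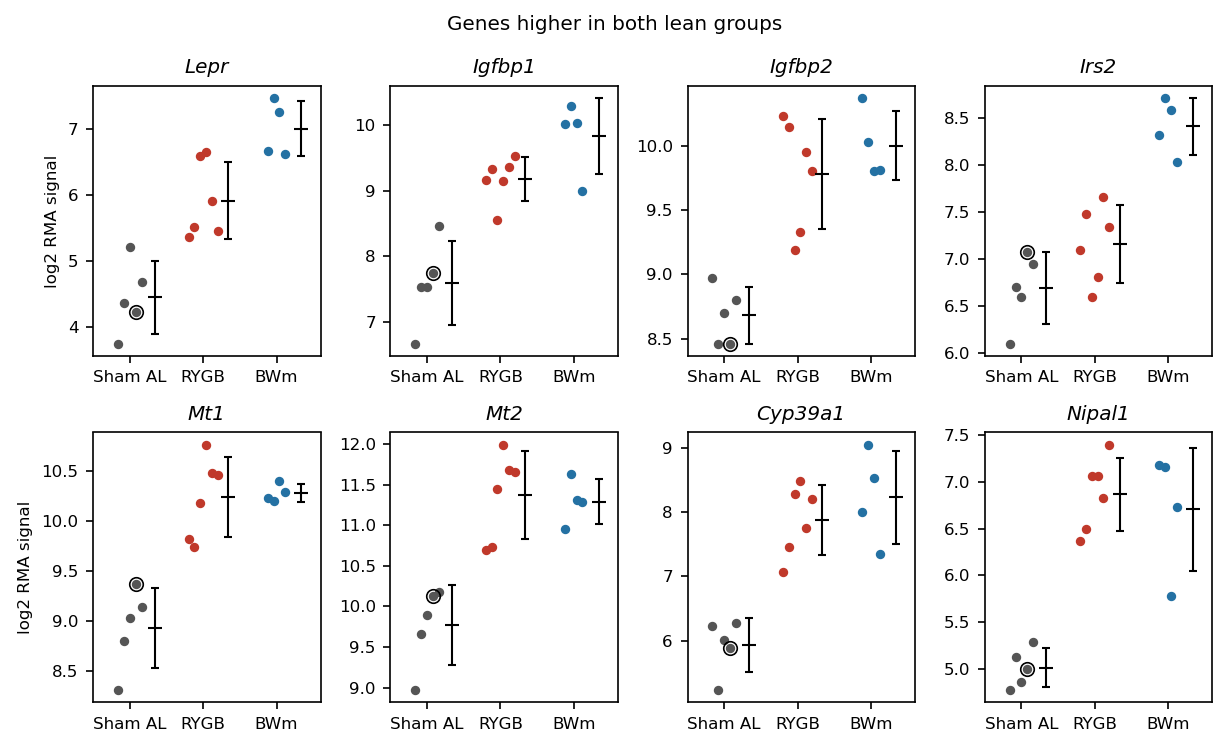
Log2 signal (vertical axis) of 8 genes that rose, by group (horizontal axis: Sham AL, RYGB, BWm), with 1 point per array, the group mean ± SD as bars and an open ring around Sham AL replicate 4. Every lean array lies above every Sham AL array for Lepr, Igfbp1, Igfbp2, Mt1, Mt2, Cyp39a1 and Nipal1, and for Irs2 the RYGB points overlap Sham AL.

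Both metallothioneins rose by nearly the same amount in the lean groups. Mt1 measured 8.31, 8.8, 9.03, 9.37 and 9.14 in Sham AL, 10.23, 10.2, 10.4 and 10.29 in BWm and 9.74 to 10.76 in RYGB (median 10.32). The lean average differed from Sham AL by 1.33 ± 0.17 (limma, adjusted p = 0.0009), with 1.31 in RYGB and 1.35 in BWm. The interval of the difference between RYGB and BWm ran from -0.46 to 0.38. Mt2 measured 8.97, 9.66, 9.89, 10.13 and 10.18 in Sham AL, 10.95, 11.63, 11.31 and 11.28 in BWm and 10.69 to 11.99 in RYGB (median 11.56). Its lean difference was 1.56 ± 0.22 (limma, adjusted p = 0.0022). For both genes every lean array lay above every Sham AL array, and their windows shown above hold 1 and 3 matches to the metal response core. Matches outside these 250 bases were not counted.

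Other genes of the fasting and glucocorticoid response moved less. Of 25 on that list, 3 rose (Igfbp1, Mt1 and Mt2) and 0 fell, and 21 had a lean difference above 0. The median was 0.24 (-0.07 in RYGB and 0.47 in BWm), and 0.35 without Sham AL replicate 4. At an unadjusted p under 0.05 were 9 of the 25, against 12.4% of all genes tested, and 0.388% of all genes were called as higher. Fkbp5, a sensitive glucocorticoid target, had 0.91 (limma, adjusted p = 0.053), the gluconeogenic enzyme Pck1 0.34 (adjusted p = 0.13), and the clock gene and glucocorticoid target Per1 0.04 (adjusted p = 0.97). The fasting hormone Fgf21 was at 1.51 in RYGB and 0.15 in BWm, and was not called in the lean contrast (limma, adjusted p = 0.08). Klb, the co-receptor of that hormone, had a lean difference of 0.66 (limma, adjusted p = 0.041). It was 0.54 without Sham AL replicate 4 and no longer called (adjusted p = 0.094), and it was chosen after its values were seen.

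Genes of bile acid, retinoid and fatty acid handling gave several of the rises. Cyp39a1, a hydroxylase of oxysterols on a side path to bile acids, had the largest rise among shared genes. It measured 6.23, 5.23, 6.01, 5.89 and 6.27 in Sham AL, 8, 9.05, 8.53 and 7.35 in BWm, and 7.07 to 8.48 in RYGB (median 7.98). No lean array overlapped Sham AL. This gave a lean difference of 2.13 ± 0.26, 4.37-fold (limma, adjusted p = 0.00072), 1.95 in RYGB and 2.31 in BWm. Of 24 genes of bile acid synthesis and transport, 2 rose (Cyp39a1 and the organic anion transporter Slco1a4) and 0 fell, with a median of 0.03. At an unadjusted p under 0.05 were 5 of the 24, against 12.4% of all genes tested. Cyp7a1, the rate-limiting enzyme of the main path, was at 0.02 (limma, adjusted p = 0.98). Slco1a4 was no longer called without Sham AL replicate 4, at 0.89 (limma, adjusted p = 0.062).

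Rdh16f2, a member of the retinol dehydrogenase family, had 7.81, 7.21, 7.23, 7.46 and 7.66 in Sham AL, 8.82, 9.04, 8.82 and 9.25 in BWm and 8.13 to 8.87 in RYGB (median 8.34). No lean array overlapped Sham AL, and the lean difference was 1.23 ± 0.13 (limma, adjusted p = 0.00017). Near-identical members of this family can share probe signal. Apom, the lipoprotein that carries sphingosine-1-phosphate, measured 7.16, 6.94, 6.87, 7.1 and 7.07 in Sham AL, 8.06, 8.2, 7.51 and 7.66 in BWm and 7.66 to 7.98 in RYGB (median 7.8). Its lean difference was 0.81 ± 0.11 (limma, adjusted p = 0.0014), and it was the 1 gene called among 22 apolipoproteins and lipoprotein genes measured. At an unadjusted p under 0.05 were 6 of the 22, against 12.4% of all genes tested. Nipal1, a magnesium transporter, measured 4.77, 5.13, 4.86, 5 and 5.29 in Sham AL and 7.18, 7.16, 5.78 and 6.73 in BWm. In RYGB it measured 6.37 to 7.4 with a median of 6.95, and no lean array overlapped Sham AL. Its lean difference was 1.78 ± 0.20 (limma, adjusted p = 0.00043).

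Of 31 genes of fatty acid oxidation and ketogenesis, 3 rose (Cyp4a14, Acot3 and Acot4) and 1 fell, with a median of 0.09 (-0.16 in RYGB and 0.15 in BWm). At an unadjusted p under 0.05 were 16 of the 31, against 12.4% of all genes tested. The fall was that of Acaa1b, a peroxisomal thiolase outside the naming rule, at -1.30 in RYGB and -0.16 in BWm. The single shared rise was Cyp4a14, an omega-hydroxylase of fatty acids. Its Sham AL values were 9.74, 9.38, 10.46, 8.66 and 9.33, its BWm values 11.14, 12.2, 11.83 and 10.84, and its RYGB values 9.77 to 11.53 (median 10.88). RYGB overlapped Sham AL, and the lean difference was 1.64 ± 0.31 (limma, adjusted p = 0.019). It was 1.42 without Sham AL replicate 4 (limma, adjusted p = 0.044), and it was not called without Sham AL replicates 2 or 5 (adjusted p = 0.075 and 0.061). The thioesterases Acot3 and Acot4 rose through BWm: Acot3 was at 0.30 in RYGB and 2.10 in BWm. Acot3 and Acot4 were not called without Sham AL replicate 4 (limma, adjusted p = 0.092 and 0.068). Copies of the Cyp4a and Acot families are close enough in sequence to share signal. Cpt1a, the gate of mitochondrial oxidation, was not called, at 0.25 (limma, adjusted p = 0.18).

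Drug metabolism genes moved in both directions. Of 29 measured, 2 rose (Cyp3a13 and Fmo2) and 1 fell (Cyp3a11), and 13 had an unadjusted p under 0.05, against 12.4% of all genes tested. Cyp3a11, the main drug-oxidising enzyme of its family, fell by 0.96 on the log2 scale (limma, adjusted p = 0.021), by 1.39 in RYGB and by 0.52 in BWm. Cyp3a13 of the same family rose by 0.65 (limma, adjusted p = 0.0068), 0.44 in RYGB and 0.86 in BWm. Among 18 NRF2 targets measured, Osgin1 (0.84, limma, adjusted p = 0.017) and the carbonyl reductase Cbr1 (0.84, adjusted p = 0.043) rose and Me1 fell. The list's median was 0.52 in RYGB and -0.46 in BWm, and 7 of its genes had an unadjusted p under 0.05 in the lean contrast. For Osgin1 and Cbr1 every lean value exceeded every Sham AL value, but Cbr1 was not called without Sham AL replicate 4 (limma, adjusted p = 0.071).

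Of 29 acute phase genes measured, Mt1, Mt2 and Il6ra rose and A2m fell, with a median of 0.25 (0.35 in RYGB and 0.12 in BWm). An unadjusted p under 0.05 was reached by 19. Over all genes tested, 12.4% reached it and 0.388% were called as higher. The mean deviation per array over this list was -0.37 to -0.11 in Sham AL, -0.18 to 0.48 in RYGB and -0.21 to 0.09 in BWm. Il6ra, the receptor of interleukin 6, had 0.75 (limma, adjusted p = 0.019), 0.41 in RYGB and 1.09 in BWm. A2m, a protease inhibitor chosen after its values were seen, was at a low level, between 3.67 and 4.02 in Sham AL and between 3.22 and 3.59 in RYGB. It had -0.43 (limma, adjusted p = 0.034), and -0.44 without Sham AL replicate 4, no longer called (adjusted p = 0.058).

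Several genes outside the metabolic lists fell together in both groups. Themis, a signalling protein known from T cell development, measured 5.75, 5.85, 5.78, 5.28 and 6.14 in Sham AL, 4.06, 2.99, 3.52 and 4.07 in BWm and 3.03 to 4.99 in RYGB (median 4.42). All lean values lay below all Sham AL values, and the lowest of them at or under the array medians, so the size of the fall is uncertain. The lean difference was -1.79 ± 0.25 (limma, adjusted p = 0.0022), and -1.91 without Sham AL replicate 4. T and B cell markers moved with it little: of 17 measured, 0 were called by limma and 2 had an unadjusted p under 0.05, against 12.4% of all genes tested. Their median was -0.08. The log2 of their summed signal was 8.6 to 9.02 in Sham AL, 8.51 to 9.29 in RYGB and 8.54 to 8.92 in BWm. Their part in the fall of Themis was not tested.

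Tpm2, a tropomyosin of the actin skeleton chosen after its values were seen, had among the smallest adjusted p values. It measured 5.51, 5.4, 5.39, 5.07 and 5.12 in Sham AL, 4.54, 4.43, 4.36 and 4.49 in BWm and 4.23 to 4.53 in RYGB (median 4.44). The lean average differed from Sham AL by -0.87 ± 0.09 (limma, adjusted p = 0.00017), with -0.89 in RYGB and -0.84 in BWm. Serpina4-ps1, a pseudogene of the Serpina family whose copies can share signal, had the largest fall, -3.13 ± 0.60 (limma, adjusted p = 0.019). It varied widely, from 6.72 to 10.52 in Sham AL and from 3.05 to 5.57 in RYGB, and it lost its call when Sham AL replicate 2 (adjusted p = 0.077) or replicate 1 (0.056) was left out.

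Serpina12 (vaspin), a secreted protease inhibitor also made by fat, had 5.11, 5.36, 5.31, 5.34 and 4.9 in Sham AL, 3.98, 3.61, 4.39 and 4.06 in BWm and 3.14 to 4.72 in RYGB (median 4.35). All lean values lay below all Sham AL values, and its lean difference was -1.11 ± 0.20 (limma, adjusted p = 0.015). Its call was lost without Sham AL replicate 2 (adjusted p = 0.066). Aqp8, a channel for water and hydrogen peroxide, had 7.25, 7.48, 7.34, 6.65 and 7.29 in Sham AL, 5.66, 4.93, 4.99 and 5.59 in BWm and 6.13 to 6.86 in RYGB (median 6.61). Its lean difference was -1.27 ± 0.16 (limma, adjusted p = 0.00072), with -0.64 in RYGB and -1.91 in BWm. Here Sham AL replicate 4 was the lowest control, and the difference was -1.41 without it.

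The remaining large falls were those of the galectin Lgals1 (-1.30), the interferon-induced GTPase Gbp10 (-1.19) and the intestinal type fatty acid binding protein Fabp2 (-1.14), all shared (limma, adjusted p = 0.018, 0.024 and 0.041). For Lgals1 the highest Sham AL array was replicate 4, and its difference was -1.10 without it (limma, adjusted p = 0.041). Each of the 3 lost its call without Sham AL replicate 2, with adjusted p of 0.071, 0.071 and 0.15. Gbp10 was also lost without Sham AL replicates 1 or 5 or BWm replicate 2 (up to 0.08), and Fabp2 without Sham AL replicates 1, 3 or 5 or BWm replicates 1, 2 or 3 (up to 0.11).

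Further rises came from genes of other kinds, chosen after their values were seen. Snhg6, a host transcript of small nucleolar RNAs, had 7.04, 6.52, 7.03, 6.88 and 7.05 in Sham AL, 8.06, 7.89, 7.8 and 7.76 in BWm and 7.73 to 8.1 in RYGB (median 7.88). Its lean difference of 0.99 ± 0.10 (limma, adjusted p = 0.00017) was 1.00 in RYGB and 0.97 in BWm, with an interval of the difference from -0.23 to 0.27. Zfas1, another such host, had 0.80 in RYGB and 0.80 in BWm (lean contrast, limma, adjusted p = 0.011), but its second cluster was at -0.04. Avpr1a, the vasopressin receptor of hepatocytes, rose by 1.05 ± 0.15 (limma, adjusted p = 0.0023). The autophagy gene Map1lc3b rose by 0.60 and Rictor, a subunit of the mTOR complex 2, by 0.43 (limma, adjusted p = 0.019 and 0.024), but Rictor was no longer called without Sham AL replicate 4 (adjusted p = 0.071).

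**Figure D4:**
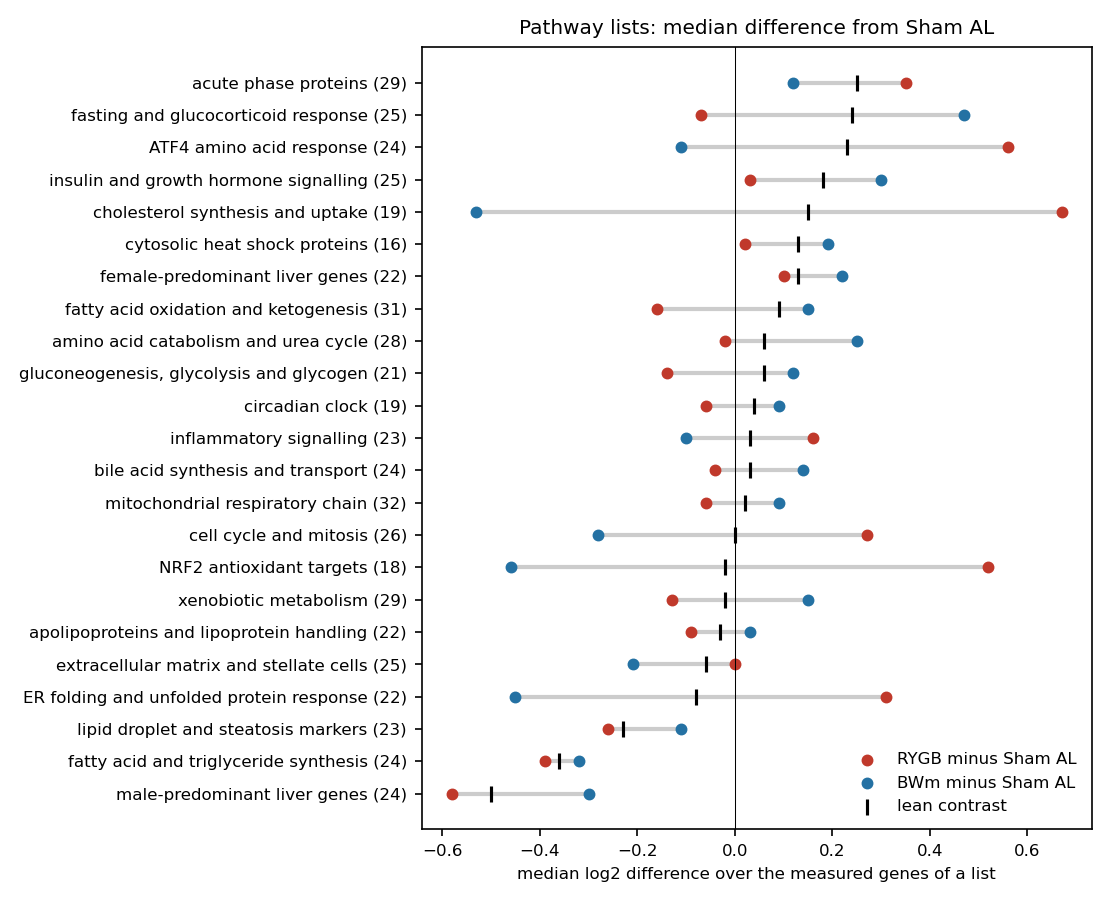
Median log2 difference of the measured genes of each list (horizontal axis) for the pathway lists (vertical axis, genes measured in brackets), with separate markers for RYGB minus Sham AL and BWm minus Sham AL, which share their Sham AL arrays, and a short black line for the lean contrast. Fatty acid synthesis lies left of 0 in both groups (-0.39 and -0.32), and cholesterol synthesis lies on opposite sides (0.67 and -0.53).

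For some lists without calls in the lean contrast, the medians in the lean groups had opposite signs, a description that was not tested. Of 19 genes of cholesterol synthesis and uptake, 0 were called in it by limma, and 4 had an unadjusted p under 0.05. Their median was 0.67 in RYGB and -0.53 in BWm, and Sqle, the squalene epoxidase, was at 2.32 and -0.75. Genes of endoplasmic reticulum folding had medians of 0.31 and -0.45 and 0 of 22 called (5 at an unadjusted p under 0.05). Targets of the amino acid response factor ATF4 had 0.56 and -0.11 and 0 of 24 called (10 at an unadjusted p under 0.05). The unadjusted threshold was reached by 12.4% of all genes tested. Single genes outside these lists also differed between the lean groups. Elovl3, a fatty acid elongase, was at -2.79 in RYGB and 0.33 in BWm, but its RYGB arrays were split. Replicates 1 and 2 of RYGB lay at 9.21 and 8.79 and replicates 3 to 6 between 5.13 and 6.05, beside 9.25 to 9.8 in Sham AL. In BWm it ranged from 8.3 to 11.66. The thioesterase Acot1 was at 0.07 in RYGB and 2.44 in BWm.

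Male-predominant liver genes had a median of -0.50, and -0.55 without Sham AL replicate 4, but 0 of 24 were called by limma. Of these, 12 had an unadjusted p under 0.05, against 12.4% of all genes tested. The median was -0.58 in RYGB and -0.3 in BWm. Over this list, the mean deviation per array was 0.19 to 0.57 in Sham AL, -0.96 to 0.66 in RYGB and -0.66 to 0.29 in BWm. RYGB replicates 1 and 2 lay at 0.66 and 0.41, and the other 4 RYGB arrays at -0.57 or lower. The wide spread within RYGB stands beside the absence of calls, and its part was not tested.

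Many shared genes did not reach the same level in the lean groups. Of the 138 called genes, 56 (40.6%) also differed between RYGB and BWm (limma, adjusted p under 0.05), against 6.36% of all genes tested. The lean contrast and this comparison use the same lean arrays, so the share is a description. Of the 115 shared genes 33 differed, with 24 further from Sham AL in BWm and 9 further in RYGB. Lepr, Irs2, Socs2, Rab30 (a small GTPase of the Golgi), Rdh16f2, Pparg and Aqp8 were among those further in BWm. Among those further in RYGB was Cyp3a11. The count of 56 moved with single arrays: it was 36 without RYGB replicate 2, 35 without RYGB replicate 4, 26 without BWm replicate 2, 20 without BWm replicate 3, 15, 24 and 32 without Sham AL replicates 2, 3 and 5, and 76 without BWm replicate 4.

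Not shared were 23 of the called genes, of which 16 missed the threshold in RYGB and 7 in BWm, and 2 had differences of opposite sign. Fmo2, a flavin-containing monooxygenase, rose by 0.45 in RYGB and 2.02 in BWm and belongs here, as do Acot3 and Scd1. For these the lean average stands mainly for 1 group.

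On the remaining lists calls were few. Of 28 genes of amino acid breakdown and the urea cycle, Asl rose (0.60, limma, adjusted p = 0.031), 0.27 in RYGB and 0.94 in BWm. At an unadjusted p under 0.05 were 6 of the 28. Of 22 female-predominant liver genes, Fmo2 and Acot3 rose and Cyp3a44 fell, each not shared, with a median of 0.13, and 12 had an unadjusted p under 0.05. In limma 0 were called of 21 genes of gluconeogenesis, glycolysis and glycogen (9 at an unadjusted p under 0.05), 19 clock genes (8), 16 cytosolic heat shock proteins (2), 26 cell cycle genes (4), 23 inflammatory genes (2), 25 matrix and stellate cell genes (5) and 32 subunits of the respiratory chain (2). Of all genes tested, 12.4% had an unadjusted p under 0.05. The medians of these lists without calls lay between -0.06 and 0.13. G6pc, the last enzyme of glucose release, was at 0.08 (limma, adjusted p = 0.95), RYGB minus BWm being -1.70 (adjusted p = 0.012).

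Calls of some genes named above rested on single arrays. In limma Scd1, Zfas1 and Fmo2 were not called without Sham AL replicate 2 (adjusted p = 0.066, 0.051 and 0.063). Irs1 and Il6ra were lost without Sham AL replicate 2 or 5 (up to 0.077 and 0.084), and Mid1ip1 without replicate 1 or 2 (up to 0.098). Cyp3a11 and Map1lc3b were lost without any of replicates 2, 3 or 5 of Sham AL (up to 0.081 and 0.084), and Rictor without 2, 3 or 4 (up to 0.099). Rab30 was lost without Sham AL replicate 2 or 3 (up to 0.078), and Slco1a4 without replicate 1, 2 or 4 or BWm replicate 2 (up to 0.10). Hsd17b12, Asl, Acot4, Acot3, Klb and Cbr1 were each lost without 6 or more single arrays, Sham AL replicate 4 among them (up to 0.15).

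Markers of other cell types gave 0 calls in the lean contrast. The count in limma is given with the count at an unadjusted p under 0.05 after it, which 12.4% of all genes reached. Of 17 Kupffer cell markers 0 were called, with 6 at the unadjusted threshold and a median difference of 0.16. Of 16 markers of recruited macrophages these were 0 and 1 (median -0.04), and of 17 of sinusoidal endothelium 0 and 1 (median 0.11). Of 15 neutrophil, 10 bile duct, 3 red cell and 9 exocrine pancreas markers, 0 passed either threshold, and the medians were 0.13, 0.03, 0.01 and -0.03. The adrenal cortex list had a median of -1.20 and the adrenal medulla list -1.21. Without Sham AL replicate 4 these were -0.06 and -0.09, and 0 genes of either list were called in either fit (with all arrays, 1 cortex and 0 medulla genes had an unadjusted p under 0.05).

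**Figure D5:**
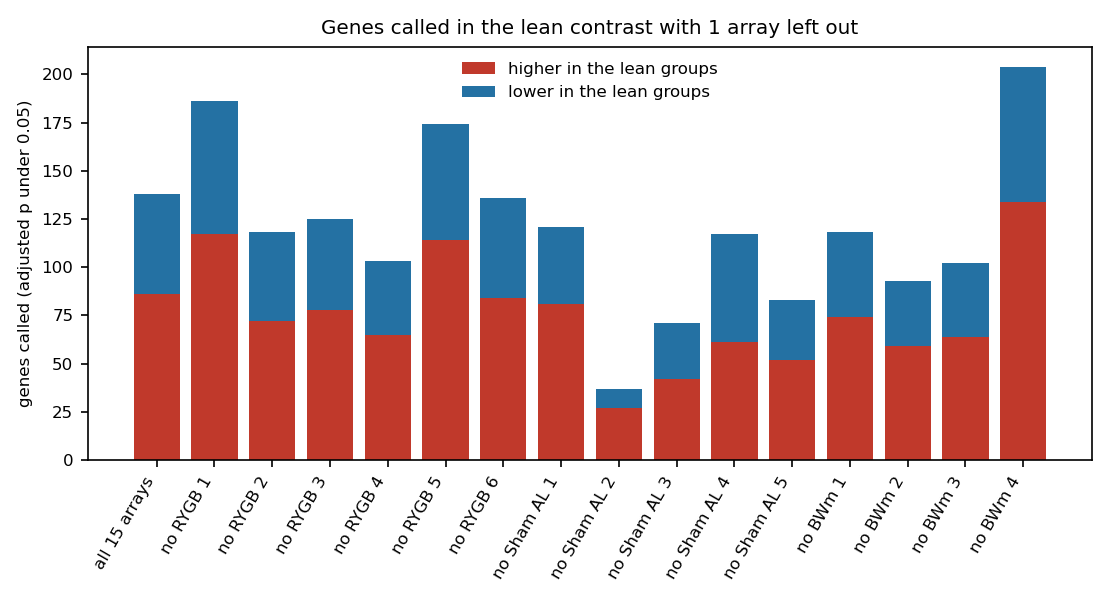
Number of called genes in the lean contrast (vertical axis, higher and lower genes stacked) with all 15 arrays and with each array left out in turn (horizontal axis). The count runs from 37 without Sham AL replicate 2 to 204 without BWm replicate 4, around 138 with all arrays.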

How the data were processed

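Liver RNA of 15 mice was measured on 1 array each. The authors normalised all arrays jointly by RMA with Expression Console 1.4.1.46, per the submitters' processing notes and design text. What they deposited, and what is analysed here, is a log2 signal for each of 41345 transcript clusters. Background levels could not be read from these values, since no scanner files were used. The probe table gave 1 symbol for 23521 clusters, several for 1814 and none for 16010. The cluster with the highest mean was kept for each gene, giving 22180 genes without a filter on level. The annotation build is not given in the sources used here.

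The contrast was fitted by lmFit and eBayes of limma 3.58.1 (R 4.3.3, 12 residual and 5.85 prior degrees of freedom, two-sided), in 1 fit of the 3 groups over all 15 arrays, and the same fit gave each group's comparison. The median standard error of a lean difference was 0.115, and each gene's own depends on its spread and on how many arrays each group has. Titles call the arrays biological replicates. The labels give no batch. Alternatives were each array left out, level, normalization, centring, cluster, variance prior, weighting, block and test choices.

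The members and the gene lists (36 lists, 650 of 717 genes measured) were chosen with earlier results of these data known. Named are the 12 largest shared rises and falls also called without Sham AL replicate 4, up to 3 called members per list and 28 fixed genes, of which 26 were measured. Predicted, receptor, small RNA and Mup genes were left out of the largest changes. Other genes were picked with their values in view. Most are marked so, and list members without calls are given as examples. The contrast was tested on simulated data. Promoters come from RefSeq. Figures used Python 3.11.15 and matplotlib 3.10.9.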

Additional observations from a re-analysis of the deposited data

Results flagged for a closer look

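Over 70 genes in the 3 groups (6, 5 and 4 arrays), 210 checks were made with Dixon's criterion. In 13 of them 1 array lay far from the rest of its group, and chance gives about 1 in 20. Cyp11b1 and Ucp1 were among the 70 because of their values on Sham AL replicate 4, so their flags were known beforehand. The 13 therefore cannot be set against chance. On Sham AL replicate 4, Cyp11b1 was at 10.37, Ucp1 at 11.89 and Sqle at 5.66, above the rest of the group, and Igf1 was at 9.51 and Aqp8 at 6.65, below it. On Sham AL replicate 1, Asl, an enzyme of the urea cycle, was at 10.21 against 9.78 to 9.89. In RYGB, replicate 2 stood apart for Aacs (7.8 against 5.86 to 6.58), replicate 5 for Pck1 (11.25 against 11.61 to 11.8) and replicate 6 for Mid1ip1 (6.48 against 6.89 to 7.09). RYGB replicate 3 stood apart for Per1 (7.33 against 8.2 to 8.72), Avpr1a (6.47 against 5.96 to 6.09) and Acmsd (9.09 against 7.45 to 8.05), Acmsd being an enzyme of tryptophan breakdown. In BWm, replicate 1 stood apart for Cyp3a13 (9.39 against 9.74 to 9.82).

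For 25 of 70 genes checked, the effects of RYGB and BWm against Sham AL differed, by the RYGB minus BWm contrast in limma. Over all genes tested the share was 6.36%. The 70 are genes picked for naming, 54 of them called in the lean contrast on the same lean arrays, so the count is a description. Above 0 were Sqle (3.07, adjusted p = 0.00028), Fgf21 (1.36, adjusted p = 0.0022), Aqp8 (1.27, adjusted p = 0.00034) and Pparg (0.81, adjusted p = 0.0093). Below 0 were Elovl3 (-3.12, adjusted p = 0.012), Acot1 (-2.37), Acot3 (-1.80), Fmo2 (-1.56), Acot4 (-0.94) and Scd1 (-0.88). For Elovl3 the RYGB arrays were split, as given above. Genes of glucose metabolism and of insulin, growth hormone or leptin signalling below 0 were G6pc (-1.70), Irs2 (-1.25), Socs2 (-1.19), Txnip (-1.13), Lepr (-1.09) and Pck1 (-0.50). Others below 0 were Plin4 (-1.42), Rab30 (-1.28), Cyp3a44 (-0.94), Slco1a4 (-0.88), Cyp3a11 (-0.88), Il6ra (-0.68), Asl (-0.67), Rdh16f2 (-0.56) and Cyp3a13 (-0.42).

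Among the 17824 clusters without a single gene symbol, which the tests above left out, 9 were called in the lean contrast (0.0505%), 4 of them higher.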

How the results depend on the processing

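Of 1128 recomputed values for the 54 called genes among 70 checked, 938 kept their call, 190 kept the direction but lost the call, and 0 changed direction. The count of called genes (138) became 387 with a level filter (mean of at least 5), 225 with a trended variance prior and 245 with array weights. It was 36 with the lean arrays pooled as 1 group and 65 with a replicate block. The methods' one-way ANOVA of lean against Sham AL arrays, with a fold of at least 1.5 also required, gave 10 after Benjamini-Hochberg. At the same fold and an unadjusted ANOVA p under 0.05 it gave 198, and 87 of the 138 reached that fold. The count of shared genes (115) became 261 with the filter, 196 with array weights and 59 with the replicate block. The called genes that differed between RYGB and BWm (56) became 161 with the filter, 92 with the trend and 19 with the replicate block. Leaving out single arrays gave 37 to 204, 36 to 158 and 15 to 76 for these counts. The filter tests fewer genes. Pooling counts the difference between RYGB and BWm as residual spread and weighs the groups by their 6 and 4 arrays. The causes of the other changes were not tested. Subtracting array medians moved the median difference of all genes by 0.028. Of 13 same-numbered pairs of arrays, 4 had deviations from their group means correlated over 0.1 (r from -0.17 to 0.19). These few pairs cannot settle whether replicate numbers pair the arrays.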
